A study of Homo sapiens with 4 samples.

Results

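The 10 genes described here encode proteins of the nuclear envelope and the lamina beneath it, namely LBR, the lamins LMNA, LMNB1 and LMNB2, the LEM-domain proteins EMD, TMPO and LEMD3, their chromatin partner BANF1, and the SUN-domain proteins SUN1 and SUN2. They were chosen by function around LBR, whose difference between sh-ACTL6A and scramble arrays was known at the time, so the differences of all 10 are given as a description of that contrast and no test is read from them. All probe sets annotated with exactly 1 gene symbol among the 10 were taken, which gave 22 of 54613 (control probe sets left out), and the 10 genes stand among 19775 named genes. A further probe set carries the symbols of SUN1 and GET4 together and was not used. The cells were SNU638, an established human gastric cancer line, infected repeatedly with lentivirus carrying a short hairpin RNA (shRNA) in the pLKO.1 vector and kept under puromycin. The sh-ACTL6A group (2 arrays) carried an shRNA against ACTL6A, and the scramble group (2 arrays) a scrambled shRNA. ACTL6A is an actin-related protein found in several chromatin remodelling complexes. The treatment protocol names a pair of ACTL6A hairpins, and no source used here says which of them each array carried, so array and hairpin cannot be told apart. Whether separate cultures were used is not stated, so the p-values rest on array-to-array spread that could be technical alone.

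The inner nuclear membrane holds proteins that tie the lamina, a meshwork of lamins, to chromatin. LBR binds B-type lamins and heterochromatin protein 1, and its membrane part is also a sterol C14-reductase of cholesterol synthesis. LEM-domain proteins bind BANF1 (barrier-to-autointegration factor), which bridges DNA, and SUN proteins span the inner membrane and join nesprins of the outer membrane to form the LINC complex, which carries force between cytoskeleton and nucleus. The lamina is taken apart at mitosis and rebuilt around the daughter nuclei, and LBR and A-type lamins are known to tether heterochromatin to the periphery at different stages of differentiation.

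Values are log2 MAS5 signals, a scale on which a difference of 1 is a doubling, from arrays with many short probes combined into probe sets. ACTL6A read 10.16 and 10.32 on the sh-ACTL6A arrays, against 11.92 and 11.82 on the scramble arrays, a difference of -1.63 ± 0.14 (SE, limma adjusted p = 0.0408). It was the only one of 12286 tested genes past the adjusted p of 0.05, and 0 genes passed after quantile normalisation, with no filter on dim genes, without the trend or without either scramble array. All 5 epithelial markers lay above the signal threshold (log2 5.63) and EPCAM read 13.52 to 13.67 on the 4 arrays, while only MUC5AC of 6 gastric markers did, and none of the 3 leukocyte markers measured did. Of the 6 fibroblast and endothelial markers, COL1A1, PECAM1 and DCN lay above it. Only markers above the threshold were tested, and none of them passed. The summed epithelial signal was 15.22 to 15.45 in sh-ACTL6A and 15.45 to 15.66 in scramble (the groups met at 15.45), and its part in the results below was not tested. The other classes overlapped: gastric 8.07 to 8.28 in sh-ACTL6A and 8.19 to 8.31 in scramble, leukocyte 5.75 to 6.51 and 5.56 to 6.45 in scramble, fibroblast and endothelial 9.05 to 9.26 and 8.96 to 9.31 in scramble. All cells were of the SNU638 line, within which bulk RNA cannot tell fewer cells expressing a marker from less of its RNA per cell. The 3′ signal of ACTB exceeded its 5′ signal, a sign of RNA quality, by 1.21 and 0.78 on sh-ACTL6A replicates 1 and 2, against 1.63 and 0.78 on scramble replicates 1 and 2, so that this measure followed the replicate number more than the group.

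By the brightest probe set of each gene, LBR stood highest among the 10 in its difference, though a dimmer TMPO probe set reached 0.89. The only probe set of LBR (gene at chr1:225401502-225428821 on GRCh38.p14) read 13.05 and 13.09 on the sh-ACTL6A arrays, against 12.38 and 12.21 on the scramble arrays. Both sh-ACTL6A arrays lay above both scramble arrays, with a gap of 0.66 between the nearest pair, while the arrays within a group differed by 0.04 in sh-ACTL6A and 0.17 in scramble. The group means were 13.07 ± 0.03 (SD, n = 2) in sh-ACTL6A and 12.30 ± 0.12 (SD, n = 2) in scramble, and the difference was 0.77 ± 0.11 (SE), a fold of 1.70. Each array carried it about equally, since replicate 1 of sh-ACTL6A exceeded the mean of the scramble arrays by 0.75 and replicate 2 by 0.79. It ranked 148 from the top among all 12286 differences. Differences spread more widely among dim genes. Of the 895 tested genes with a mean signal at or above that of LBR, itself included, 0 had a difference larger in size. LBR was chosen with its difference known and that cut lies at its own mean, so these ranks describe LBR and test nothing.

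The promoter of LBR is shown because it is the gene with the largest difference by brightest probe set. A further reason is that the study concerns NRF2, a factor that binds antioxidant response elements. The 250 bases before its start site lie at chr1:225428822-225429071 on the minus strand of GRCh38.p14 (RefSeq), printed 5′ to 3′ with the last base next to the start and with capitals where the letters of the element's core occur.
LBR: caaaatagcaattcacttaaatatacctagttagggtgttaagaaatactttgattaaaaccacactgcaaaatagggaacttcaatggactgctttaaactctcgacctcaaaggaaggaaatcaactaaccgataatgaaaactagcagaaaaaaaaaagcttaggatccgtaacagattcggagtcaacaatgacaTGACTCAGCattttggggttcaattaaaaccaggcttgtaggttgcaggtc
The capitals match TGACNNNGC, the core of the antioxidant response element, and their first 7 letters also match TGACTCA, the site of AP-1 factors, at 51 to 43 bases before the start. On either strand TGACNNNGC occurred in 10.9% of 35116 promoter windows of this length and TGACTCA in 4.2%. Of the 15 windows of the 9 genes found in the promoter table, 1 held TGACNNNGC, that of LBR. TGACTCA was in 2, that of LBR and 1 of the SUN2 windows. The motifs were picked after the sequences were seen, so nothing is read from these counts. SUN1 was not in that table. LBR also differed from the other 8 genes in base composition, with 36.8% G and C, against 48.4% to 78.8% in their windows and a median of 58% over all windows. The GC box (GGGCGG, 42.6% of all windows) was found for EMD, LEMD3, LMNA, LMNB1, LMNB2, SUN2 and TMPO and the CCAAT box (CCAAT, 32% of all windows) for EMD, LEMD3, LMNA, LMNB1, SUN2 and TMPO. Neither was in the LBR or BANF1 window. The cell cycle homology region (TTTGAA, 13.3% of all windows) was found for LMNB2 and SUN2. These matches describe letters and say nothing of binding.

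**Figure D1:**
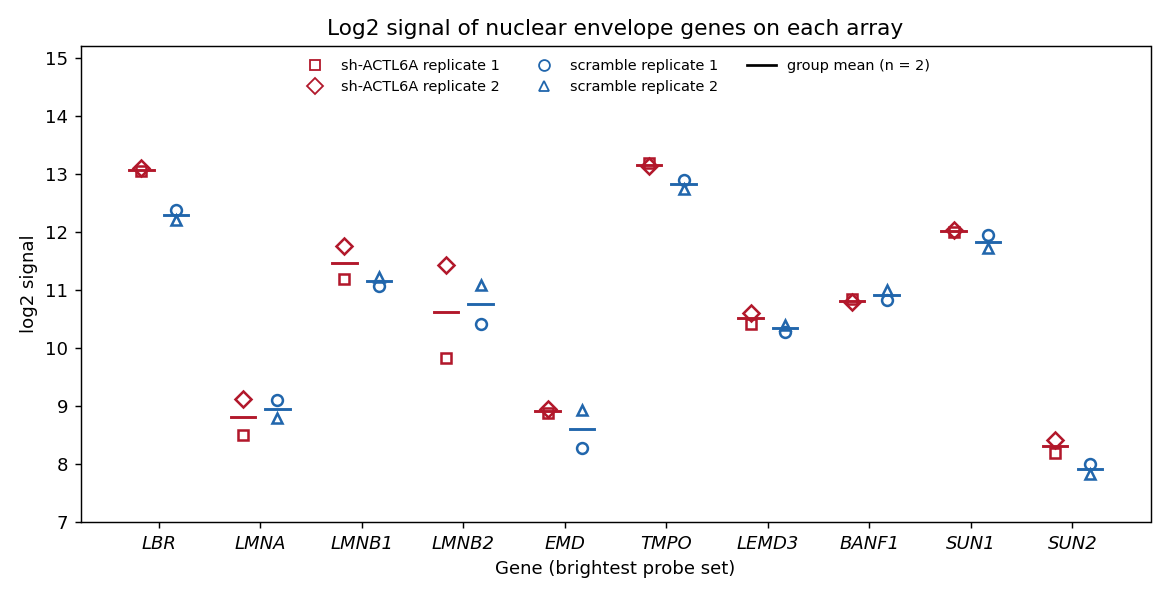
Log2 signal (vertical axis) of the brightest probe set of each gene (horizontal axis), with red squares and diamonds for sh-ACTL6A replicates 1 and 2, blue circles and triangles for scramble replicates 1 and 2, and short lines for group means (n = 2 each). LBR has the widest gap between groups (0.66), and the LMNB2 arrays of each group lie far apart.

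The B-type lamins, which stay attached to the membrane through a lipid anchor, gave no separation of the groups. LMNB1 (chr5:126776623-126837020) read 11.19 and 11.75 on the sh-ACTL6A arrays, against 11.06 and 11.23 on the scramble arrays. Only sh-ACTL6A replicate 2 stood above the others, and the groups overlapped by 0.04, so that the difference of 0.33 ± 0.20 (SE) came mostly from that array (0.61, against 0.05 for replicate 1). LMNB2 (chr19:2428166-2456959) read 9.82 and 11.43 on the sh-ACTL6A arrays, against 10.42 and 11.08 on the scramble arrays. Here replicate 2 was the higher array in both groups, by 1.61 in sh-ACTL6A and 0.67 in scramble, and the difference of -0.13 ± 0.47 (SE) was smaller than the SD pooled over groups (0.87). The replicates that were low for LMNB2 were those with the larger 3′ to 5′ excess of ACTB, whose part in this was not tested.

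LMNA (chr1:156082573-156140081), which encodes lamins A and C by alternative splicing, was measured by 6 probe sets that disagreed in sign. The brightest read 8.50 and 9.12 on the sh-ACTL6A arrays, against 9.11 and 8.80 on the scramble arrays, with a difference of -0.15 ± 0.24 (SE) and overlapping groups. The next brightest, an x_at set, read 7.86 and 8.19 on the sh-ACTL6A arrays, against 7.30 and 7.75 on the scramble arrays, and stood higher without overlap (0.49 ± 0.26, SE). The dimmest, also an x_at set, read 4.24 and 4.79 on the sh-ACTL6A arrays, against 5.79 and 5.65 on the scramble arrays, a difference of -1.20 ± 0.55 (SE). It was the only one of the 22 probe sets to lie lower without overlap, and its mean signal (5.12) was below the threshold. Of the remaining 3, an s_at set differed by -0.11 and an x_at set by -0.87, with sh-ACTL6A replicate 2 alone at 5.12 and the other arrays at 6.95 to 7.12. The last, an s_at set, differed by 0.75, with the arrays of a group up to 2.40 apart. On this array type the suffix x_at marks sets with probes that can also bind other transcripts, and s_at sets whose probes match several transcripts. The only probe sets of LMNB2 and BANF1 are also s_at sets.

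Among the LEM-domain genes, TMPO came closest to LBR. TMPO (chr12:98515573-98550351) encodes the lamina-associated polypeptide 2 (LAP2) isoforms, of which some sit in the inner membrane and bind B-type lamins and another is soluble in the nucleus. Its brightest probe set read 13.18 and 13.13 on the sh-ACTL6A arrays, against 12.90 and 12.74 on the scramble arrays, a difference of 0.34 ± 0.10 (SE). Both sh-ACTL6A arrays were higher, with a gap of 0.23 between groups and a range of 0.05 in sh-ACTL6A and 0.16 in scramble. The probe set with the largest difference, an s_at set, read 10.05 and 10.52 on the sh-ACTL6A arrays, against 8.98 and 9.81 on the scramble arrays, a difference of 0.89 ± 0.29 (SE). The groups did not overlap there either, but scramble replicate 1 was 0.83 below scramble replicate 2. Scramble replicate 1 also had the largest 3′ to 5′ excess of ACTB (1.63), whose part in this was not tested. Another s_at set read 10.19 and 10.72 on the sh-ACTL6A arrays, against 10.03 and 10.15 on the scramble arrays, also without overlap, by 0.05. The second brightest differed by only 0.07 ± 0.15 (SE), with overlapping groups at 11.84 and 12.14 in sh-ACTL6A and 12.04 and 11.82 in scramble. The dimmest, below the threshold, differed by -0.05. The tables used here do not say which isoforms each probe set detects, so the spread of the 5 probe sets from -0.05 to 0.89 could not be set against isoforms.

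EMD (chrX:154379295-154381523) encodes emerin, a LEM-domain protein of the inner membrane, and is the gene of an X-linked muscular dystrophy. Its probe set read 8.88 and 8.95 on the sh-ACTL6A arrays, against 8.28 and 8.93 on the scramble arrays. Only scramble replicate 1 stood apart, 0.65 below its partner, and the difference of 0.31 ± 0.24 (SE) turned to -0.02 without it. That array had the largest 3′ to 5′ excess of ACTB (1.63), whose part in this was not tested. In the brightest probe sets it was the lower scramble array for LMNB1, LMNB2, EMD, LEMD3 and BANF1. For LBR, LMNA, TMPO, SUN1 and SUN2 it was the higher one. LEMD3 (chr12:65169583-65248355), also called MAN1, binds receptor-regulated SMAD proteins and limits TGF-β and BMP signalling. Its probe set read 10.42 and 10.61 on the sh-ACTL6A arrays, against 10.28 and 10.40 on the scramble arrays, a difference of 0.18 ± 0.15 (SE) with a gap of 0.03. BANF1 (chr11:66002503-66004149), the DNA-bridging partner of LEM domains, read 10.84 and 10.79 on the sh-ACTL6A arrays, against 10.83 and 10.99 on the scramble arrays. Its groups touched within 0.01, and its difference of -0.10 ± 0.14 (SE) was the smallest in size of the 10.

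The SUN-domain genes read higher on both sh-ACTL6A arrays in their brightest probe sets. SUN2 (chr22:38734734-38755998) read 8.19 and 8.41 on the sh-ACTL6A arrays, against 8.01 and 7.83 on the scramble arrays, a difference of 0.39 ± 0.21 (SE). Its gap between groups was 0.19, about the range of either group (0.22 in sh-ACTL6A and 0.18 in scramble). SUN1 (chr7:815557-874934) read 11.99 and 12.03 on the sh-ACTL6A arrays, against 11.94 and 11.72 on the scramble arrays, a difference of 0.18 ± 0.13 (SE) with a gap of 0.05. The second brightest probe set of SUN1 read 6.65 and 6.60 on the sh-ACTL6A arrays, against 6.68 and 6.53 on the scramble arrays, a difference of 0.02. The next read 6.16 and 6.25 in sh-ACTL6A, against 5.43 and 5.96 in scramble, a difference of 0.50 without overlap. The dimmest, below the threshold, read 3.83 and 5.27 in sh-ACTL6A, against 4.38 and 3.29 in scramble, a difference of 0.72. All 4 differences lay above 0, the second brightest by only 0.02. The groups overlapped in 2 of the 4, where 33.8% of all 54613 probe sets did not overlap. Nothing is read from these SUN1 counts.

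**Figure D2:**
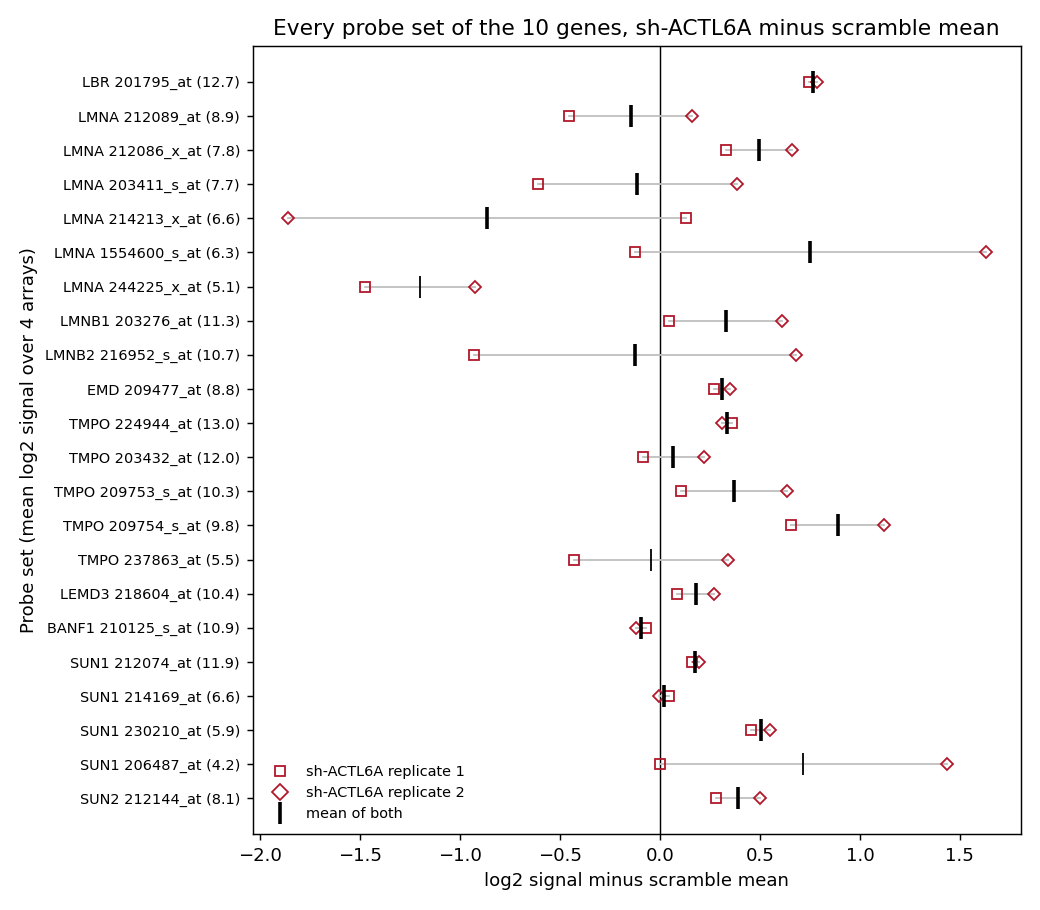
Log2 signal of the sh-ACTL6A arrays, with the mean of the scramble arrays subtracted (horizontal axis), for all 22 probe sets (vertical axis, mean log2 signal in brackets), with squares for replicate 1, diamonds for replicate 2 and bars for their mean, thin where the mean signal is below 5.63. LBR has both arrays near 0.77, the TMPO probe sets range from -0.05 to 0.89, and the LMNA probe sets spread from -1.20 to 0.75.

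Side by side, 7 of the 10 genes had a positive difference and 3 (LMNA, LMNB2 and BANF1) a negative one, with a median of 0.24, beside 51.9% positive and a median of 0.01 over all 12286 genes tested. Without LBR, 6 of 9 were positive with a median of 0.18. All 10 genes passed the filter on dim genes with their brightest probe set, and of the 22 probe sets 19 did. By limma, 0 of the 10 passed an adjusted p of 0.05, where 0.00814% of all genes tested did. At an unadjusted p under 0.05 there were 2, LBR and TMPO, where 5.5% of all genes were, and the methods' t-test put 1 there and 0 after adjustment. Since the contrast was in view when the genes were chosen, nothing is read from these counts. The arrays of the groups did not overlap for 5 genes (LBR, TMPO, LEMD3, SUN1 and SUN2), all higher in sh-ACTL6A, where 34.6% of all genes tested did not overlap and 19.3% did not overlap and were higher. Over probe sets the groups did not overlap for 10 of 22, directions pooled, where 33.8% of the 54613 did not. Nothing is read from these counts of overlap either. For LMNA, LMNB2 and EMD the SD pooled over groups exceeded the size of the difference. The median of the 10 genes was 0.12 on sh-ACTL6A replicate 1 and 0.33 on sh-ACTL6A replicate 2, each set against the scramble mean.

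**Figure D3:**
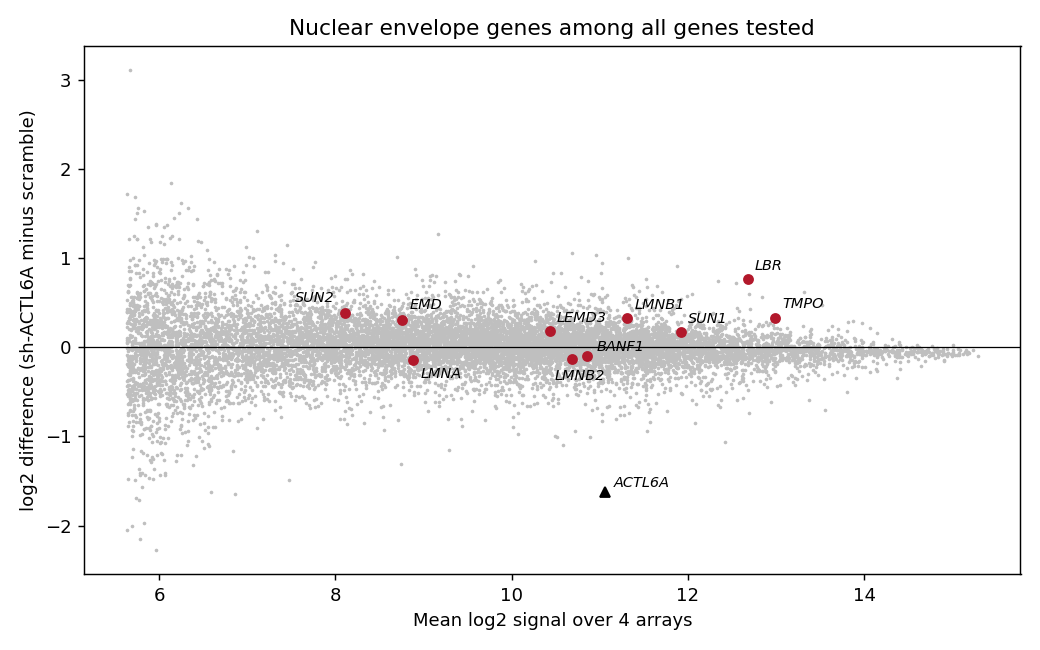
Log2 difference (sh-ACTL6A minus scramble, vertical axis) against the mean of the 4 log2 signals (horizontal axis), with the 12286 genes tested in grey, with the 10 nuclear envelope genes in red and ACTL6A as a black triangle. LBR, at 0.77, lies at the upper edge of the genes of its signal, and ACTL6A lies at -1.63.

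The arrays of a group often differed by more than the groups did. Between replicates 1 and 2 the 10 genes differed by -0.05 to 1.61 in sh-ACTL6A and by -0.31 to 0.67 in scramble (replicate 2 minus replicate 1). The direction was the same in both groups for 5 of the 10 (LMNB1, LMNB2, EMD, TMPO and LEMD3), beside 54.2% of all genes tested. LBR was not among these, as its small replicate differences were 0.04 in sh-ACTL6A and -0.17 in scramble.

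Over the 4 arrays, each gene centred on its own mean, the genes with the pattern most like that of LBR were MAD1L1, PROSER1, SPTSSA, FARP1 and FBXW7, with root mean square differences of 0.027 to 0.055 on the log2 scale. PROSER1 read 11.18 and 11.31 on the sh-ACTL6A arrays, against 10.57 and 10.43 on the scramble arrays. MAD1L1, with a mean signal of 5.82 just above the threshold, differed by 0.81, SPTSSA by 0.72, FARP1 by 0.69 and FBXW7 by 0.67. With 4 arrays such likeness reflects little beyond a similar difference between the groups. Of the other 9 nuclear envelope genes, SUN2 (0.20) and TMPO (0.22) lay nearest to LBR by this measure and LMNB2 (0.77) farthest.

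Related genes were followed in 5 lists. In sterol synthesis after squalene, the pathway in which LBR acts as a reductase, the median of the 9 genes tested was -0.042, with 3 positive and 6 negative. TM7SF2, the other C14-reductase and a paralogue of LBR, read 8.52 and 9.01 on the sh-ACTL6A arrays, against 7.95 and 8.60 on the scramble arrays. The groups overlapped, and the difference of 0.49 ± 0.27 (SE, limma adjusted p = 0.918) did not pass. DHCR7, which makes cholesterol in the last step of one branch, read 10.69 and 10.37 on the sh-ACTL6A arrays, against 11.22 and 10.81 on the scramble arrays, a difference of -0.49 ± 0.19 (SE, limma adjusted p = 0.862). SQLE, the squalene epoxidase, differed by -0.27 and HSD17B7 by 0.28.

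Other genes of the inner membrane and the LINC complex had a median of 0.00019 over 20 tested genes, 10 positive and 10 negative. NEMP1 differed by -0.32 ± 0.14 (SE, limma adjusted p = 0.917), the torsins TOR1B and TOR3A, ATPases of the perinuclear space, by -0.40 and -0.50, and LMNTD2 by 0.55. Genes of lamin processing and of envelope breakdown and reassembly had a median of -0.039, with 11 of the 27 tested positive and 16 negative. CTDNEP1, a phosphatase of the nuclear envelope that acts on lipin, read 11.23 and 11.24 on the sh-ACTL6A arrays, against 11.49 and 11.56 on the scramble arrays, a difference of -0.29 ± 0.12 (SE, limma adjusted p = 0.906). PPP2CA, a catalytic subunit of protein phosphatase 2A, differed by -0.43, NARF by 0.25 and AKAP8 by -0.28.

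Chromatin partners of LBR, lamins and BANF1 had a median of 0.081, with 15 of the 19 tested positive and 4 negative. KMT5C, a methyltransferase for histone H4 lysine, read 5.88 and 6.49 on the sh-ACTL6A arrays, against 7.12 and 7.05 on the scramble arrays, a difference of -0.90 ± 0.33 (SE, limma adjusted p = 0.851) at a mean signal of 6.63. EHMT1, a histone H3 lysine methyltransferase, differed by 0.29, the retinoblastoma gene RB1 by 0.20 and GMCL1, whose product binds LAP2, by 0.18. Nucleoporins had a median of -0.032, with 12 of the 32 tested positive and 20 negative. POM121, a membrane nucleoporin with near-identical copies that its probes may also bind, read 6.46 and 6.20 on the sh-ACTL6A arrays, against 7.10 and 7.11 on the scramble arrays, a difference of -0.77 ± 0.29 (SE, limma adjusted p = 0.855). NDC1, another membrane nucleoporin, differed by 0.29, TMEM33 by -0.34 and NUP50 by -0.31. By limma 0 genes of the 5 lists passed over all genes tested in either direction. At an unadjusted p under 0.05 the lists held 0 genes (inner membrane and LINC) or 1 gene each, namely CTDNEP1, KMT5C, DHCR7 and POM121, all lower. Over all genes tested 676 were there (5.5%), 394 higher and 282 lower, and nothing is read from counts of 0 or 1 a list or from their direction. The methods' t-test called 0 genes in each list after adjustment.

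**Figure D4:**
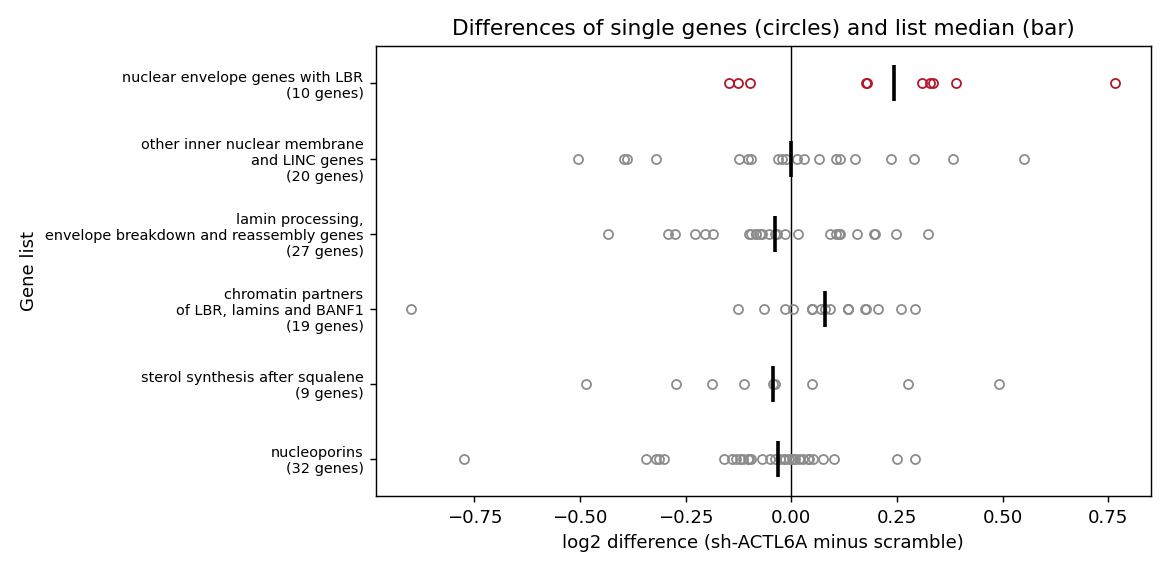
Log2 difference (sh-ACTL6A minus scramble, horizontal axis) of each tested gene (circles) in the nuclear envelope genes with LBR (red) and in the 5 lists of related genes (grey, vertical axis), with a bar at each median. The red genes have a median of 0.24 and were chosen with LBR in view, while the medians of the lists lie between -0.042 and 0.081.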

How the data were processed

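RNA of SNU638 cells was hybridised to 4 single-colour Affymetrix arrays. Per the labels, the authors deposited log2 signals computed with MAS5 (version not stated), which treats each array alone, and the trimmed mean of linear signal (2% off each end) was 500.0 on every array. Probe sets were named by a table of the platform: 41091 had 1 symbol, 1801 several and 11721 none. The identifiers of 41037 were found in a current gene table, and no symbol needed updating. Each gene was represented by its brightest probe set and tested if its mean reached the 50th percentile (log2 5.63). The design (no block) was fitted with limma 3.58.1 in R 4.3.3 (lmFit, eBayes with an intensity trend, 7.65 degrees of freedom), 2-sided, with Benjamini-Hochberg adjustment over 12286 genes and a threshold of 0.05. SEs of a gene's other probe sets came from a fit over all 54613 probe sets. The fit was tested on simulated data with known changes, where at this number of arrays it called almost none of the smallest changes and a minority at every size but the largest, so a gene that does not pass is not shown to be unchanged. Precision is limited by there being 2 arrays in each group.

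The 10 genes, the lists and the tests were chosen with earlier results of these data known, and the promoter motifs after the sequences were seen. Named in the text were all 10 genes, ACTL6A, TM7SF2, up to 4 genes per list by unadjusted p, every list gene past the threshold, and the 5 genes nearest to LBR. Settings tried instead were: every probe set tested, or their mean per gene; a 75th percentile filter, or none; an offset of 16 in linear signal; median centring; quantile normalisation; no trend; the replicate number as a block; omission of single arrays; and the methods' t-test. Upstream windows of 250 bases were taken from RefSeq (GRCh38.p14), without the bases after the start.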

Additional observations from a re-analysis of the deposited data

How the results depend on the processing

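The LBR difference lay between 0.76 and 0.80 in the 9 settings with all arrays and between 0.68 and 0.85 with 1 array left out. In the settings with all arrays that kept the gene, no sign of the 10 genes turned. With 1 array left out, LMNA ranged from -0.45 to 0.16, LMNB2 from -0.93 to 0.68, LMNB1 from 0.05 to 0.61 and EMD from -0.02 to 0.64, while LBR, TMPO, LEMD3, SUN1 and SUN2 stayed positive and BANF1 negative. Averaging all probe sets moved SUN1 to 0.35. The median of the 10 genes ranged from 0.225 to 0.32 with all arrays and from 0.12 (without sh-ACTL6A replicate 2) to 0.33 with 1 left out. SUN2 was below the 75th percentile filter, and the median of the 9 genes kept there was 0.18. Of the 10 genes, 0 passed in the settings with all arrays, the methods' t-test and the fit of every probe set included. With 1 array left out, a group is down to a lone array that is assumed to vary like the pair of the other group. Nothing is read from which genes pass in those fits, among the 10 genes, the lists or all genes.

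Over all genes, 1 passed, against 0 after quantile normalisation, with no filter, without the trend, with the methods' t-test and with every probe set tested, and 2 with the replicate block. With 1 array left out the count ranged from 0 (without either scramble array) to 401 (without sh-ACTL6A replicate 1), with 335 without sh-ACTL6A replicate 2. The replicate block changed no call among the 10 genes or the lists. Replicate numbers were not shown to pair samples (correlation of replicate differences 0.056 over 12286 genes). The median of the lamin processing list was -0.0070 with median centring and -0.050 to 0.015 with 1 array left out, where 0 to 2 of its genes passed. The inner membrane and LINC median was 0.11 with all probe sets averaged and -0.10 to 0.042 with 1 array left out (0 to 2 genes past the threshold). With 1 array left out, medians ranged from 0.043 to 0.097 for chromatin partners, -0.085 to 0.032 for sterol synthesis (0 to 1 genes) and -0.15 to 0.021 for nucleoporins (0 to 3 genes).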
